A study of Mus musculus with 6 samples.

Results

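The potassium channel gene family was taken as every protein-coding gene whose GENCODE mouse symbol begins with Kcn. The annotation holds 94 such genes, and 71 of them carried a value in at least 1 of the 6 libraries, of 15441 gene identifiers with a value in the whole data set. The libraries came from male C57/BL6J mice of 6 to 8 weeks with a photothrombotic stroke, made by injecting the dye Rose Bengal and lighting the sensorimotor cortex through the intact skull. RNA was taken from the whole ipsilateral cortex at day 1, day 3, day 7, day 14 or day 28 after stroke, and the sham mice were operated on without illumination and sampled at day 7. In each group the RNA of 3 mice was pooled into 1 strand-specific, poly(A)-selected library, so that every group was 1 library and no difference below has a replicate check, an error or a p-value. All post-stroke libraries were compared with the same sham library, so the comparisons share it and are not independent of each other.

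Potassium channels let potassium leave or, for some types, enter the cell along its gradient. They set the resting potential, end the action potential and tune the firing of neurons, and in astrocytes they take up the potassium that active neurons release. Voltage-gated channels are built of 4 pore subunits (Kcna, Kcnb, Kcnc, Kcnd, Kcnh and Kcnq), which silent modifier subunits (Kcnf, Kcng, Kcns and Kcnv) can join and to which auxiliary subunits (Kcnab, Kcne and Kcnip) can bind. A further set of auxiliary subunits, Kcnmb, binds the calcium-activated BK channel. Inward rectifiers (Kcnj), tandem pore domain or K2P leak channels (Kcnk) and channels opened by calcium or sodium (Kcnma, Kcnn and Kcnt, with the related Kcnu) make up the rest. In ischemic tissue, extracellular potassium is known to climb when the sodium-potassium pump fails.

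The values are FPKM, a fragment count scaled by transcript length and by the size of the library, which the authors assigned to transcript starts, transcript ends and splicing events. The level of a gene in a library was the largest of its summed start FPKM, its summed end FPKM and any single event. Because FPKM is per length, levels of different genes can be set side by side. The log2 ratio to sham was taken after adding 0.1 FPKM, for genes with at least 1 FPKM in 1 of the libraries compared. A gene for which a library holds no event is called not listed there. It was counted as 0 in the counts, and no ratio is printed for it.

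Of the 94 members, 53 were listed in all 6 libraries and 18 in 1 to 5 of them. A further 23 were listed in none: Kcna1, Kcna3, Kcna5, Kcna7, Kcna10, Kcnab3, Kcne1, Kcne1l, Kcnf1, Kcng3, Kcnh8, Kcnj1, Kcnj4, Kcnj5, Kcnj11, Kcnj15, Kcnk12, Kcnk15, Kcnk16, Kcnk18, Kcnmb1, Kcnmb3 and Kcnv2. Being unlisted is not a measure of absence. All 4 members whose annotated transcripts have a single exon were unlisted, and among all protein-coding genes of that kind 39 of 1344 (2.90%) were listed, against 13676 of 20684 (66.1%) of those with more exons. At least 1 FPKM in any library was reached by 64 members. The 7 listed members that stayed below it were Kcne3, Kcnj14, Kcnk5, Kcnk7, Kcnn4, Kcnq1 and Kcnrg.

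The libraries listed 13263 to 13987 genes, of which 60 to 69 were members. Their single depths are unknown, and the labels give only a mean of 33.6 M reads. Markers of neurons were listed in full (8 of 8), with a summed level of 1435 to 1945 FPKM, as were those of astrocytes (8 of 8) and of microglia and macrophages (10 of 10), while 6 of 7 markers of cortical excitatory neurons were listed. The summed level of striatal markers (4 of 6 listed) was 256 FPKM in sham and 175 to 337 FPKM after stroke. That of thalamic and hypothalamic markers (6 of 7 listed) was 6.78 FPKM in sham and 8.98 to 60.8 FPKM after stroke, and Oxt, Avp and Pmch were not listed in sham. Choroid plexus markers (3 of 3 listed) summed to 285 FPKM in sham and to 181 to 559 FPKM after stroke. These sums differed between libraries, and their part in the results below was not tested.

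In sham cortex the members ranged widely in level. Of the 63 listed there, 24 had 10 FPKM or more and 4 were below 1 FPKM, with a median of 5.98 FPKM. Kcnab2, a beta subunit of Kv1 channels, stood first at 129 FPKM and alone made up 16.1% of the family's summed level. After it came Kcnk1 (the K2P channel TWIK) at 41.0 FPKM, Kcnmb4 (the neuronal beta subunit of the BK channel) at 40.9 FPKM, and the Kv4 partners Kcnip2 at 38.3 FPKM and Kcnip3 at 36.2 FPKM. The G protein-gated inward rectifier subunit Kcnj9 had 35.3 FPKM and the astrocyte channel Kcnj10 had 34.2 FPKM. Among voltage-gated pore genes, Kcnh3 had 25.1 FPKM and Kcnc1, a fast channel of fast-spiking interneurons, had 23.9 FPKM. With 1 sham library, neighbours in this order cannot be told apart.

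After stroke more members were below their sham level than above it at every day, and few crossed a log2 ratio of 1 in either direction. In bulk tissue, fewer cells of a type and less RNA per cell cannot be told apart. At day 1, of 61 members compared, 6 were lower than sham by a log2 ratio of at least 1 (9.84%, against 4.48% of all genes compared) and 1 was higher (1.64%, against 5.11%). At day 3, of 60 members, 4 were lower (6.67%, against 2.53% of all genes) and 1 was higher (1.67%, against 8.54%). At day 7, of 62 members, 2 were lower (3.23%, against 2.12%) and 2 were higher (3.23%, against 8.53%). The day 14 library held the most lower members, 10 of 62 (16.1%, against 6.92% of all genes), beside 2 higher (3.23%, against 8.97%). At day 28, 8 of 60 were lower (13.3%, against 2.79%) and 1 was higher (1.67%, against 3.68%).

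Several of these calls rest on members not listed in the later library. Among members listed in both libraries compared, the lower ones numbered, from day 1 to day 28, 3 of 58 (background 3.53%), 3 of 58 (2.1%), 2 of 60 (1.77%), 6 of 57 (4.66%) and 4 of 56 (2.11%). The higher ones numbered 1, 0, 0, 1 and 1, against 4.13%, 7.15%, 7.08%, 7.69% and 3% of all genes listed in both. The members lower at day 1 were Kcnma1, Kcnb2 and Kcnj9, with Kcng2, Kcng4 and Kcnk9 not listed at that day. At day 3 they were Kcnu1, Kcnk4 and Kcnj3, with Kcnk9 not listed. At day 7 they were Kcnma1 and Kcnb2, whose call there depends on how its level is built, as given below. At day 14 they were Kcnma1, Kcnj9, Kcnk9, Kcnab1, Kcnt2 and Kcnj6, with Kcnb2, Kcng4, Kcnh7 and Kcns3 not listed. At day 28 they included Kcnu1, Kcnk2 and Kcnk4, with Kcng4, Kcnip4, Kcnj8 and Kcnk9 not listed. The higher ones were Kcne4 at day 1, Kcna6 at day 14 and Kcne2 at day 28, besides Kcnk6 (days 3, 7 and 14) and Kcnh6 (day 7), neither of which was listed in sham. Kcnk4 turns with the way its level is built, as given below, and without it 3 of 59 members were lower at day 3 (5.08%) and 7 of 59 at day 28 (11.9%), or 2 of 57 and 3 of 55 of those listed in both.

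The shift below sham was broad and small. From the first to the last of the 5 days, a log2 ratio below 0 was found for 41 of 61 members (67.2%, against 48.5% of all genes), 41 of 60 (68.3%, against 46.6%), 45 of 62 (72.6%, against 46.2%), 44 of 62 (71.0%, against 42.6%) and 40 of 60 (66.7%, against 46.2%). In the same order the median log2 ratio of the members was -0.27, -0.22, -0.24, -0.28 and -0.20, where the median over all genes was 0.01, 0.03, 0.03, 0.10 and 0.03.

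**Figure D1:**
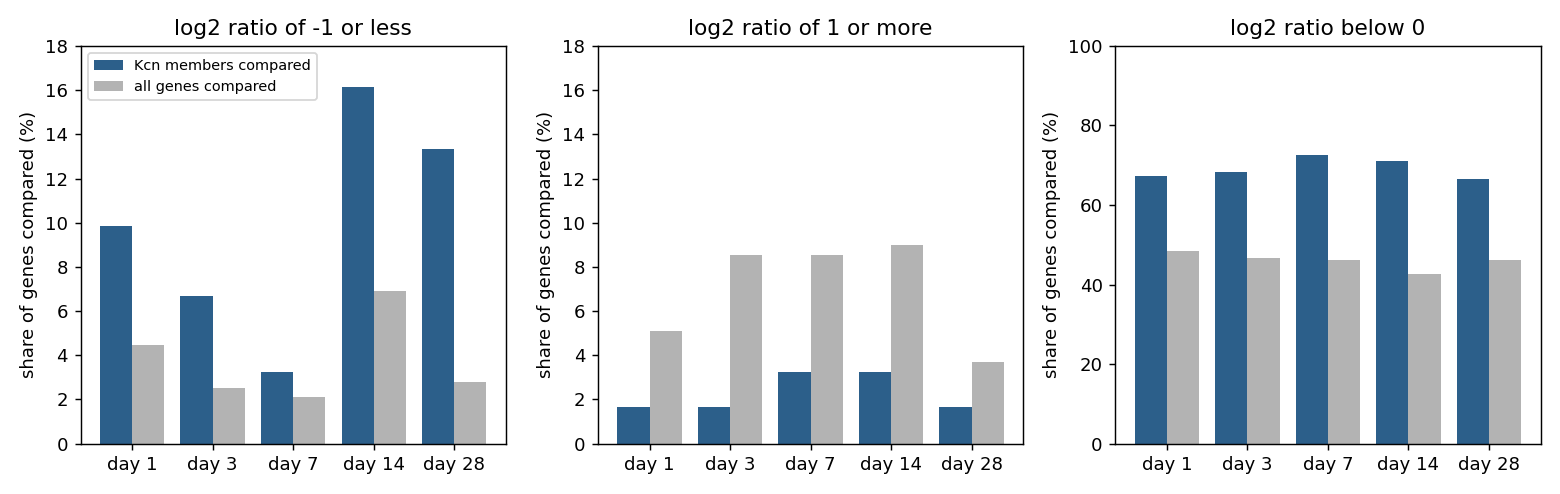
Share of Kcn members (blue) and of all genes compared (grey), in percent, with a log2 ratio to sham of -1 or less (left), of 1 or more (middle) and below 0 (right) at each day after stroke, 1 library per group. The blue bars are above the grey ones in the left and right panels at every day and below them in the middle panel, and the left panel is tallest at day 14 (16.1% of members against 6.92% of genes).

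The libraries can also be compared without a threshold, by asking in which of the 6 each gene was highest and lowest. Of the 53 members listed in all libraries (each with at least 1 FPKM in 1 of them), sham was the highest library for 16 (30.2%, against 13% of 11565 genes), day 1 for 14 (26.4%, against 15.9%) and day 28 for 8 (15.1%, against 13.9%). Days 3, 7 and 14 were highest for 5 members each (9.43%), against 15.9%, 13.5% and 27.8% of genes. The lowest library was day 14 for 19 members (35.8%, against 21.5%), day 7 for 10 (18.9%, against 11.9%), and day 1 and day 3 for 7 each (13.2%, against 18% and 17%). Sham and day 28 were lowest for 5 members each (9.43%, against 18.5% and 13.1%). The day 14 library therefore stood out on the low side, where the members are also longer than the average gene: their median longest transcript was 4087 nt, against 3406 nt over all genes compared, and the log2 ratio at day 14 was lower for longer genes (Spearman's rho -0.41 over 12038 genes). That rho was -0.25 at day 1 and between -0.09 and 0.00 at the other days. With the trend on length removed, day 14 was lowest for 12 members instead of 19, and the median log2 ratio at day 14 was -0.18. The share of all genes lowest at day 14 after that removal is not given here. Whether day 14 still stood out for the members therefore cannot be said.

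Added up, the members' FPKM came to 802 in sham and to 707, 713, 675, 654 and 653 in the libraries of days 1, 3, 7, 14 and 28, so that the post-stroke sums were 81.5% to 88.9% of sham. The marker genes of neurons summed to 92.9%, 73.8%, 77.1%, 77.5% and 88.2% of sham at the 5 days. The sum of the neuron markers was lowest at day 3 and that of the members at day 14 and day 28. The neuron markers differed among themselves at day 14. Snap25, Syt1, Slc17a7, Nefl and Nefm had log2 ratios of -0.54, -0.87, -0.89, -0.32 and -0.28. Eno2, Stmn2 and Rbfox3 had 0.41, 0.13 and 0.03. The part of neuronal content in the members' sum was not tested. Markers of cortical excitatory neurons were at 98.7%, 82.7%, 74.8%, 55.9% and 84.0%, and interneuron markers (5 of 6 listed) at 86.7% to 107%. The excitatory sum was mostly Slc17a7, the vesicular glutamate transporter also in the neuron list, which held 86.4% of it in sham. Without Slc17a7 it was at 97.6%, 88.0%, 65.4%, 67.7% and 91.2%, and at day 14 its members Tbr1 and Rorb had log2 ratios of -0.23 and -0.13, Cux2 had -1.45 and Fezf2 had 0.61. Without Gad1, the interneuron sum was at 81.3% to 94.9%.

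The classes differed in how far and when their sums were below sham. Voltage-gated pore genes were at 91.0%, 87.0%, 83.1%, 78.3% and 80.5% of sham, each library up to day 14 being below the one before. Inward rectifiers were lowest at day 14, at 61.5% of sham, with 97.6% at day 3. Silent modifiers were lowest at day 1, at 67.4%, and at 92.2% by day 28. Calcium- or sodium-activated channels were at 72.8% to 86.4% from day 1 to day 14 and at 105% at day 28. K2P channels were at 107% at day 1 and at 74.4% at day 28, and auxiliary subunits were between 76.5% and 90.2%.

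**Figure D2:**
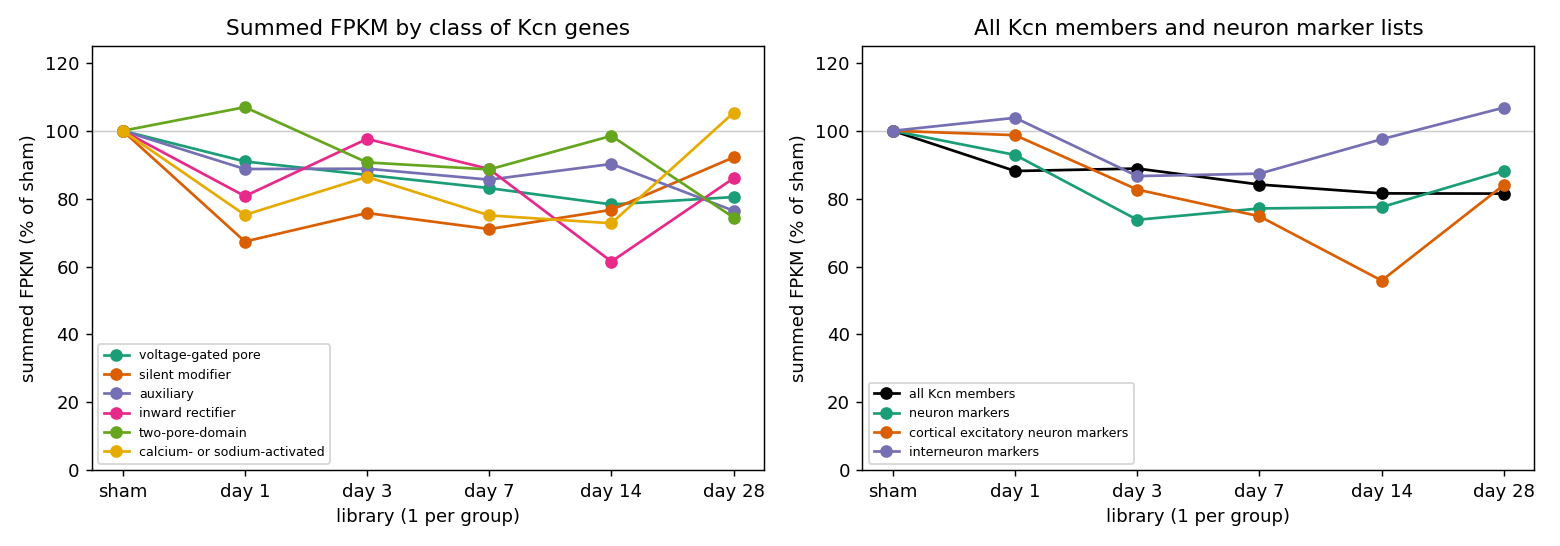
Summed FPKM in each of the 6 libraries, in percent of the sham library, for the 6 classes of Kcn genes (left) and for all Kcn members beside 3 lists of neuron markers (right), each point being 1 library. Inward rectifiers reach their low of 61.5% at day 14, the same library in which the markers of cortical excitatory neurons are at 55.9%. Without Slc17a7 (not drawn) those markers are at 67.7% at day 14 and are lowest at day 7, at 65.4%, where inward rectifiers are at 88.7%.

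Among the 30 voltage-gated pore genes, 24 were listed, and 15 of 21 compared were below sham at day 1, 15 of 21 at day 3, 18 of 22 at day 7, 18 of 22 at day 14 and 16 of 21 at day 28, where the share over all genes compared was 48.5%, 46.6%, 46.2%, 42.6% and 46.2%. Most of these differences were small. Kcna2, the leading Kv1 gene, which shapes firing at the axon, had 19.7 FPKM in sham and 15.1, 16.3, 15.6, 15.7 and 17.3 FPKM at days 1, 3, 7, 14 and 28. All 5 post-stroke values lay under sham and close to each other. Kcna4, an A-type Kv1 subunit, had 4.30 FPKM in sham and 2.46 FPKM at day 1 (log2 ratio -0.78), and came to 3.39, 4.01, 4.22 and 4.84 FPKM at the later days. Kcna6 was at 0.461 FPKM in sham and 1.15 FPKM at day 14, under 0.001 FPKM at days 1 and 3 and not listed at day 28, so the log2 ratio of 1.16 at day 14 rests on low values.

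Kcnb2, a delayed rectifier of the Kv2 group, was low in FPKM. It had 2.08 FPKM in sham, then 0.897, 1.32 and 0.557 FPKM at days 1, 3 and 7, was not listed at day 14, and had 1.49 FPKM at day 28. Its log2 ratio was -1.13 at day 1 and -1.73 at day 7. The sham level is an end sum, but no end was listed at day 7, where the level is a start sum. By start sums, sham had 0.513 FPKM and day 7 had 0.557 FPKM. The direction at day 7 therefore depends on how the level is built.

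The Kv3 genes let neurons fire fast, and Kcnc1 and Kcnc2 are typical of parvalbumin interneurons. Kcnc1 had 23.9 FPKM in sham and 17.9 to 19.9 FPKM after stroke, below sham in every library. Kcnc2 went the other way, with 7.01 FPKM in sham and 11.4, 11.4, 10.6, 9.27 and 10.2 FPKM after stroke (log2 ratios of 0.40 to 0.69). Its main start, at 112269708, lies outside the annotated span of Kcnc2 and 309 bases from a RefSeq start. That start held 98.1% of the start sum in sham, 82.6% to 98.6% at days 3 to 28 and 11.3% at day 1. At day 1 a start in the 3′ part of the gene held 88.7%, with 10.1 FPKM against 0.135 FPKM in sham. Leaving out events outside the span took over 10% from the value of Kcnc2 in all 5 post-stroke libraries. Within the span, without its main start, its values were 6.87 FPKM in sham and 10.1, 6.69, 6.52, 5.42 and 7.83 FPKM after stroke. Days 3, 7 and 14 were then below sham, so the direction at these days depends on how the level is built. Kcnc4 kept between 15.9 and 18.4 FPKM, its highest value being that of sham.

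Kcnd2, the main Kv4 channel behind the dendritic A current, had 16.1 FPKM in sham and 9.70 to 14.3 FPKM after stroke, lowest at day 14. Its relative Kcnd3 had 7.32 FPKM in sham, was highest at day 7 (10.1 FPKM) and day 28 (9.84 FPKM) and lowest at day 14 (6.54 FPKM). At day 14 its start sum was 0.391 FPKM and its level is a single exon-skipping event, while its other levels are start sums. That event had 5.58 FPKM in sham, so the low of Kcnd3 at day 14 depends on how the level is built. Kcnd1, the least of the 3 Kv4 genes, had 1.95 FPKM in sham and 1.28 to 2.08 FPKM after stroke, on both sides of sham. The ether-a-go-go genes were led by Kcnh3, with 25.1 FPKM in sham, 16.3 FPKM at day 3 and 23.9 FPKM at day 14. Kcnh7, of the Erg group, had 8.15 FPKM in sham and 5.22, 4.19 and 5.06 FPKM at days 1, 3 and 7, was not listed at day 14, and had 4.37 FPKM at day 28. Kcnh4 had 3.58 FPKM in sham, 1.75 FPKM at day 7 (log2 ratio -0.99) and 4.72 FPKM at day 28. Kcnh1 and Kcnh2, which encodes the Erg channel also known from the heart, were at 8.30 and 7.33 FPKM in sham and at 5.83 to 8.80 and 5.24 to 6.96 FPKM after stroke. Kcnh5 had 1.47 FPKM in sham, 1.91 FPKM at day 3 and 0.866 FPKM at day 14. Kcnh6 was listed from day 1 to day 14 only, with a high of 1.51 FPKM at day 7. Over 10% of that value, 0.353 FPKM, came from a start on the strand opposite to the gene.

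Kcnq genes encode the M channels that restrain repetitive firing. Kcnq3, a subunit of the neuronal M channel, had 14.8 FPKM in sham and 13.9 FPKM at day 28, and was lowest at day 14 with 8.55 FPKM. Kcnq5 had 10.4 FPKM in sham, 6.49 FPKM at day 14 and 10.2 FPKM at day 28, so both were lowest at day 14 and near sham at day 28.

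Silent modifiers form no channel of their own and change Kv2 channels when they join them. Kcnv1 held 52.5% of their summed level in sham. It had 21.5 FPKM in sham and 13.1, 13.6, 12.7, 12.2 and 18.1 FPKM after stroke. Its values from day 1 to day 14 were close to each other and all under sham, with log2 ratios of -0.66 to -0.81, and day 28 lay between. Kcng1 was above sham at days 3 to 28, with 4.65 FPKM in sham, a high of 7.08 FPKM at day 14 and 3.49 FPKM at day 1. Kcns2, the leading Kcns gene, had 5.24 FPKM in sham and 3.74 to 5.92 FPKM after stroke, and Kcns1 had 4.48 FPKM in sham, 2.89 FPKM at day 7 and 6.02 FPKM at day 14. The low members Kcng2, Kcng4 and Kcns3, with 1.55, 1.6 and 1.97 FPKM in sham, were each not listed in at least 1 post-stroke library.

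Of the 17 auxiliary subunit genes, 12 were listed. Kcnab2 led with 129 FPKM in sham and had 93.5, 124, 108, 98.0 and 84.9 FPKM after stroke. It was below sham in every library, with log2 ratios of -0.06 to -0.60. Kcnab1, the other listed beta subunit, had 13.8 FPKM in sham and 27.0, 13.7, 17.2, 6.17 and 24.8 FPKM after stroke. It was highest at day 1, with a log2 ratio of 0.96, and lowest at day 14, with -1.15. Its day 7 level is an end sum, and no end was listed in sham. The day 7 start sum was 10.8 FPKM, below the 13.8 FPKM of sham, so the direction at day 7 depends on how the level is built. At day 1 an event in the 3′ part of the gene supplied 15.3 FPKM of its start sum, and no start was listed there in the other libraries.

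The Kcnip genes encode the KChIP proteins that bind Kv4 channels. Kcnip2 had 38.3 FPKM in sham, 25.7 FPKM at day 3 and 49.0 FPKM at day 14. Kcnip3, which is also known as the transcriptional repressor DREAM, kept within 32.8 and 43.9 FPKM in all libraries. Kcnip1 was above sham at every day, from 7.88 FPKM in sham to 13.4 FPKM at day 1 and 10.5 FPKM at day 14. Kcnip4 had 3.32 FPKM in sham and 2.38 to 3.94 FPKM up to day 14, and was not listed at day 28. At day 14 the summed Kcnip level was 107 FPKM against 85.7 FPKM in sham, while that of their Kcnd partners was 18.3 FPKM against 25.4 FPKM. The Kcnd3 part of that Kcnd sum depends on how its level is built, as given above.

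Kcnmb4 gives BK channels their slow, toxin-resistant gating in neurons. It had 40.9 FPKM in sham and 28.6, 26.3, 22.0, 31.6 and 21.8 FPKM after stroke, below sham in every library by log2 ratios of -0.37 to -0.91. Kcnmb2, the other listed BK beta subunit, had 1.06 FPKM in sham and 0.528 FPKM at day 7 (log2 ratio -0.89). Kcne2, a small subunit abundant in choroid plexus, had 0.75 FPKM in sham and 1.45, 0.799, 1.42, 1.15 and 2.18 FPKM after stroke. Its highest value, at day 28 (log2 ratio 1.42), was in the library with the highest summed choroid plexus markers, at 196% of sham, and its value nearest to sham was at day 3, where those markers were at 63.5%. Ttr held 97.9% of that marker sum in sham, and without it the sum was highest at day 1 (193%), next at day 28 (179%) and lowest at day 3 (70.4%). The inward rectifier Kcnj13, also a choroid plexus gene, had 3.76 FPKM in sham, 5.14 FPKM at day 1, 4.15 FPKM at day 28 and 2.12 FPKM at day 14. Kcne4 was low throughout, with 0.421 FPKM in sham and 1.07 FPKM at day 1, which gave the log2 ratio of 1.16 counted above.

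**Figure D3:**
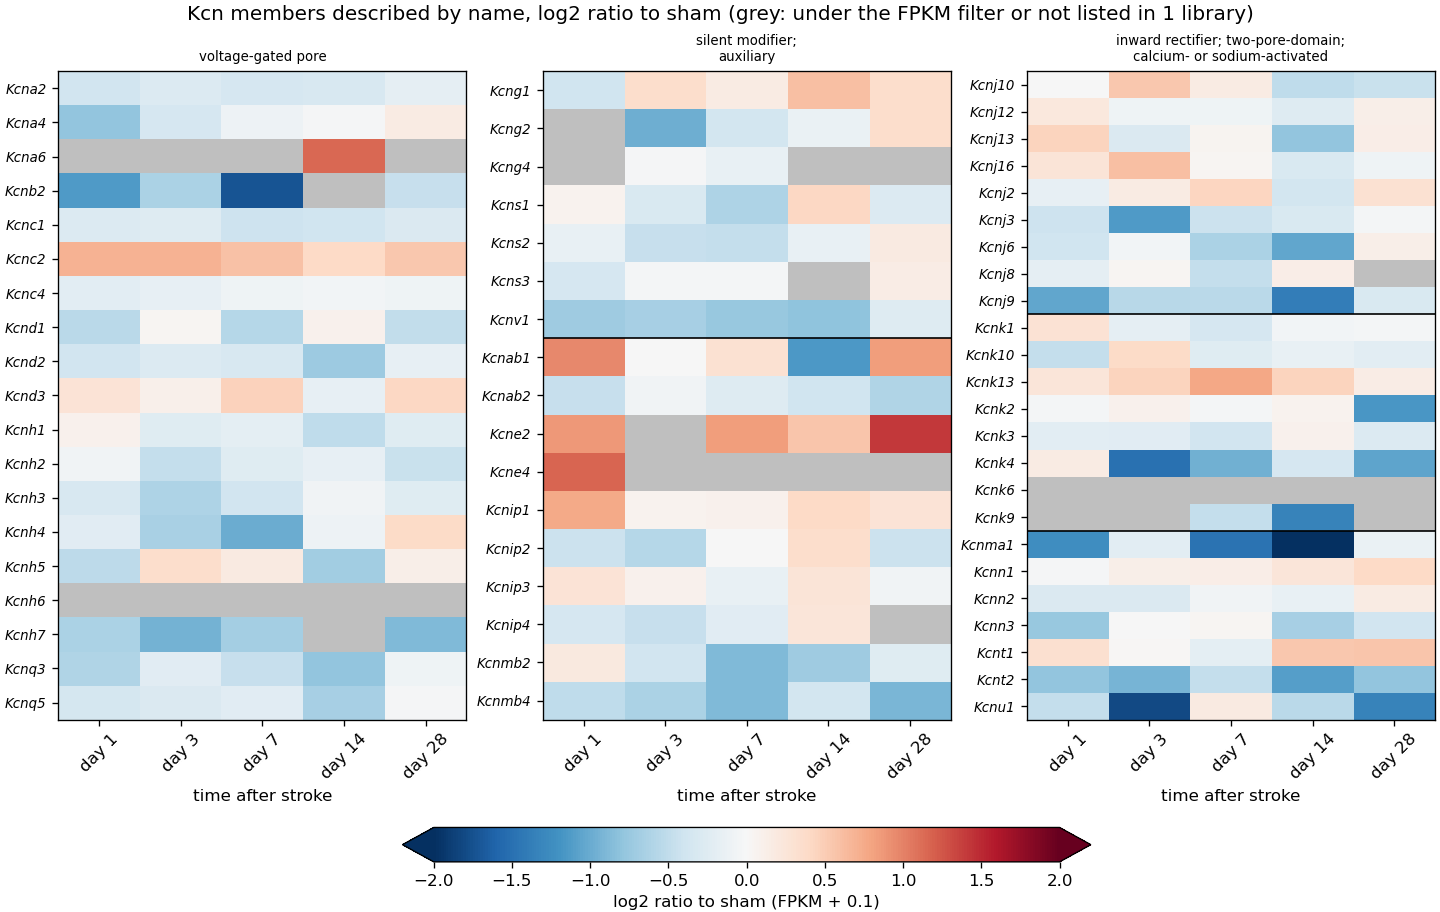
Log2 ratio to sham, after adding 0.1 FPKM, of Kcn members compared (rows, by class, with black lines between classes) at each day after stroke (columns), 1 library per group. Blue marks lower and red higher than sham, and the scale ends at 2 in either direction, which Kcnma1 at day 14 (-2.78) passes. Grey cells are pairs under 1 FPKM or not listed in 1 library.

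Of the 15 inward rectifier genes, 10 were listed, and they include neuronal and glial channels. The GIRK subunits Kcnj3, Kcnj6 and Kcnj9 form the channels through which inhibitory receptors coupled to G proteins quiet neurons. Kcnj9 had 35.3 FPKM in sham and 17.0, 24.1, 24.3, 13.5 and 28.6 FPKM after stroke. All post-stroke values lay below sham, with log2 ratios of -1.05 at day 1 and -1.38 at day 14. Kcnj6 had 5.98 FPKM in sham and 4.52, 5.74, 3.82, 2.86 and 6.52 FPKM after stroke, with a log2 ratio of -1.04 at day 14 that was -0.47 by transcript ends alone. Kcnj3 had 18.2 FPKM in sham and 13.6, 8.19, 13.5, 14.6 and 17.6 FPKM after stroke, lowest at day 3 (log2 ratio -1.14). The low days of these subunits were therefore not the same, and day 28 was nearer to sham than day 14 for all 3. Kcnj12, a strong inward rectifier, had 3.93 FPKM in sham and 3.29 to 4.56 FPKM after stroke.

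Kcnj10 (Kir4.1) and Kcnj16 (Kir5.1) form the channel by which astrocytes buffer potassium. Kcnj10 had 34.2 FPKM in sham and 34.0, 49.7, 38.5, 24.0 and 25.2 FPKM after stroke. Kcnj16 followed the same outline, with 6.80 FPKM in sham and 8.13, 10.4, 6.95, 5.48 and 6.43 FPKM after stroke. Both were highest at day 3, with log2 ratios of 0.54 and 0.60, and lowest at day 14, with -0.51 and -0.30. The astrocyte marker list summed to 112%, 174%, 144%, 137% and 104% of sham at the 5 days. Much of its excess was 1 gene, Gfap, the filament protein of reactive astrocytes, with 85.8 FPKM in sham, 698 FPKM at day 3 and 380 FPKM at day 14. Without Gfap the list was at 83.0%, 106%, 107%, 105% and 96.9% of sham. At day 14 its members Aqp4, Slc1a2, Slc1a3 and Aldh1l1 were below sham like both channel genes, with log2 ratios of -0.17, -0.66, -0.22 and -0.10, while Gjb6, S100b and Aldoc were above it, with 0.25, 0.52 and 0.40. The part of astrocyte content in the channel genes' values was not tested.

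Members known from microglia, macrophages and other immune cells were low in FPKM and, where listed, highest at day 3 or day 7. Kcnk13, the K2P channel THIK that sets the resting potential of microglia, had 1.78 FPKM in sham and 2.13, 2.45, 3.09, 2.47 and 1.98 FPKM after stroke, above sham in all 5 libraries and highest at day 7 (log2 ratio 0.77). Kcnk6 was not listed in sham or at day 28 and had 0.944, 2.23, 2.61 and 1.53 FPKM at days 1, 3, 7 and 14. Kcnn4, the calcium-activated channel of immune cells, was listed at day 3 (0.459 FPKM) and day 7 (0.452 FPKM) only. Kcnj2, an inward rectifier of activated microglia among other cells, had 2.95 FPKM in sham and 2.62, 3.31, 4.02, 2.27 and 3.68 FPKM after stroke. Kcna3, another channel of microglia and lymphocytes, was listed in no library. The microglia and macrophage markers summed to 163 FPKM in sham. At the 5 days the sum was at 131%, 383%, 669%, 489% and 130% of sham, highest in the same library as Kcnk13, Kcnk6 and Kcnj2. Csf1r, Tyrobp, C1qa, C1qb, Cd68 and Lyz2 were also highest at day 7, with log2 ratios of 1.12 to 5.71. Lyz2 alone had 6.73 FPKM in sham and 357 FPKM at day 7. Aif1 was highest at day 14 and P2ry12 at day 3, with day 7 log2 ratios of 0.70 and -0.03. Cx3cr1 was listed only at days 1 and 14, and Tmem119 only at days 7 and 28. The part of microglial content in the channel genes' values was not tested. Kcnj8, the Kir6.1 subunit of pericytes, had 1.22 FPKM in sham and 0.847 to 1.34 FPKM up to day 14, and was not listed at day 28, where the pericyte markers were at 46.4 FPKM against 49.1 FPKM in sham.

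**Figure D4:**
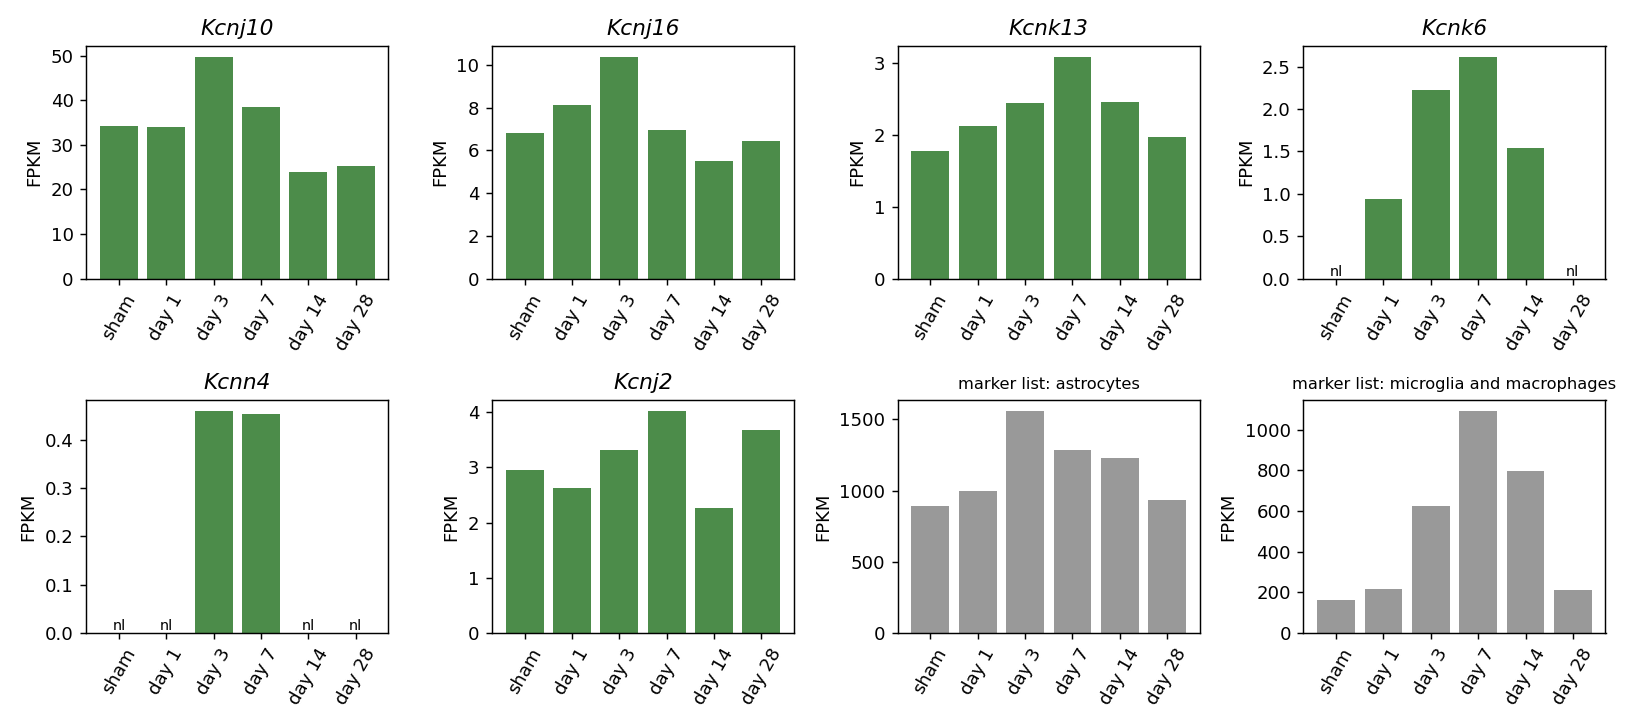
FPKM in each of the 6 libraries of 6 Kcn genes known from astrocytes or from microglia and immune cells (green), and summed FPKM of the marker lists of astrocytes and of microglia and macrophages (grey), with nl where a gene was not listed. Kcnj10 and Kcnj16 are highest at day 3 and lowest at day 14, while Kcnk13, Kcnk6 and Kcnj2 are highest at day 7, as is the microglia list.

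Among K2P channels, Kcnk1 had 41.0 FPKM in sham and 50.1, 36.3, 32.6, 39.4 and 40.0 FPKM after stroke, on both sides of sham. Kcnk3 (TASK-1), an acid-sensitive leak channel, had 4.84 FPKM in sham and 3.68 to 5.14 FPKM after stroke, and Kcnk10 (TREK-2) had 1.04 FPKM in sham and 0.724 to 1.39 FPKM after stroke. Kcnk2 (TREK-1), a leak channel opened by stretch and lipids, had 22.7 FPKM in sham, 22.1 to 24.2 FPKM from day 1 to day 14 and 10.1 FPKM at day 28 (log2 ratio -1.16). Kcnk9 (TASK-3) had 3.96 FPKM in sham, 2.81 FPKM at day 7 and 1.51 FPKM at day 14, and was not listed in the other 3 libraries. Kcnk4 (TRAAK) had 5.18 FPKM in sham and 5.83, 1.78, 2.60, 4.10 and 2.45 FPKM after stroke. Its log2 ratios of -1.49 at day 3 and -1.05 at day 28 were 1.02 and 1.46 by transcript ends, so no direction can be given for it.

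Kcnma1, the pore of the BK channel that calcium and voltage open together, showed the lowest log2 ratio of any member listed in both libraries at day 1 and day 14. It had 16.9 FPKM in sham and 7.08, 14.5, 6, 2.37 and 15.3 FPKM after stroke. Days 1, 7 and 14 were low, with log2 ratios of -1.24, -1.48 and -2.78, and days 3 and 28 were near sham, with -0.21 and -0.14. The values therefore did not follow the order of days. Its longest annotated transcript has 12094 nt, and with the trend on length removed the log2 ratio at day 1 was -0.94. Its neuronal partner Kcnmb4, described above, was lowest at days 7 and 28.

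The SK channels open with calcium after a spike. Kcnn2, their leading gene, had 14.0 FPKM in sham and 11.5 to 15.8 FPKM after stroke. Kcnn1 stayed between 2.60 and 3.52 FPKM, and Kcnn3 had 2.50 FPKM in sham, 1.44 FPKM at day 1 and 1.53 FPKM at day 14. Kcnt1 and Kcnt2 encode sodium-activated channels, and their values differed in direction. Kcnt1 had 10.5 FPKM in sham and 15.4 FPKM at both day 14 and day 28, while Kcnt2 had 3.8 FPKM in sham and 1.73 to 2.70 FPKM after stroke, below sham in every library. At day 14 the log2 ratio of Kcnt2 was -1.09, and -0.90 by transcript ends. Kcnu1, a relative of Kcnma1 known from sperm, had 1.49 FPKM in sham, 0.354 FPKM at day 3 and 0.527 FPKM at day 28.

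The start events give the position at which a member's assembled transcripts began, and the mixture of starts differed between libraries for some members. Whether a start is a true transcript start or the end of a 5′-incomplete transcript was not tested. For Kcnk2 the mixture differed among libraries of like gene level, while for Kcnab2 and Kcnj3 the gene level differed too. Kcnk2 lies on the minus strand of chromosome 1 in GRCm38 (189207930 to 189402273) and used 4 starts, each within 2 bases of a RefSeq start. Its most distal start, at 189402273, had 7.01 FPKM in sham, 10.3, 9.93, 2.68 and 1.41 FPKM at days 1, 3, 7 and 14, and was not listed at day 28. Its most proximal start, at 189343355, had 12.4 FPKM in sham and 10.8, 14.3, 18.8, 22.4 and 8.83 FPKM after stroke. The distal share of the start sum was thus 30.9% in sham and 46.3%, 41.0%, 12.1% and 5.93% at days 1, 3, 7 and 14, while the gene level stayed near 22 to 24 FPKM in these libraries.

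Kcnab2, on the minus strand of chromosome 4, had a distal start at 152477871, the end of its annotated span, and an internal start at 152448840, 15 bases from a RefSeq start. The distal start had 68.0 FPKM in sham and 92.8, 54.8, 57.8, 77.6 and 84.8 FPKM after stroke. The internal start had 61.2 FPKM in sham and 0.657, 68.8, 50.6 and 20.4 FPKM at days 1, 3, 7 and 14, and was not listed at day 28. So the lower Kcnab2 level at days 1 and 28 was met with a distal start above its sham value. Kcnj3, on the plus strand of chromosome 2, had a start at 55435970, which is a RefSeq start, with 17.4 FPKM in sham and 7.95, 0.751, 7.62 and 13.5 FPKM at days 1, 3, 7 and 28. It was not listed at day 14. A start 1186 bases downstream had 0.704 FPKM in sham and 5.65, 6.90, 5.66, 14.5 and 4.13 FPKM at days 1, 3, 7, 14 and 28. That downstream start held 90.2% of the start sum at day 3 and 99.2% at day 14.

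The 250 bases upstream of these starts are shown because they are the sequences on which the differing starts border. They are RefSeq promoter entries on GRCm38.p6, read 5′ to 3′ on the strand of the gene, with CpG dinucleotides in capitals. The windows are chr1:189402274-189402523 (minus strand) for the distal Kcnk2 start, chr4:152448856-152449105 (minus strand) for the internal Kcnab2 start and chr2:55435720-55435969 (plus strand) for the 5′ Kcnj3 start.
Kcnk2 distal start: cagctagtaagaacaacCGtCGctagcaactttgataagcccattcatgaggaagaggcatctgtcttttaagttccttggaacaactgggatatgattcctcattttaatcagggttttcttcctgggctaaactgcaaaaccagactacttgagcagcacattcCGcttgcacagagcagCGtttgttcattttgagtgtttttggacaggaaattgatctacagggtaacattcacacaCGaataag
Kcnab2 internal start: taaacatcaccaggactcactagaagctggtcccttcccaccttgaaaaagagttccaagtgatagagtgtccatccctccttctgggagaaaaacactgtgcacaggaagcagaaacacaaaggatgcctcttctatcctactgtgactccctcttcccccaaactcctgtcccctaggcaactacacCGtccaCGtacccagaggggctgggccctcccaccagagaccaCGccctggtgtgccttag
Kcnj3 5′ start: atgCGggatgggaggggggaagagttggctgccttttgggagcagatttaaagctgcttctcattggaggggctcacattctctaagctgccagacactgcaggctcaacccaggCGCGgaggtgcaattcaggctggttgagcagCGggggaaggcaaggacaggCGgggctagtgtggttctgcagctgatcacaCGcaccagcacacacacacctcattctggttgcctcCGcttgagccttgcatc
They hold 5, 3 and 7 CpG and have a GC content of 42.4%, 54% and 58.4%. The window before the proximal Kcnk2 start (chr1:189343354-189343603) holds 28 CpG at a GC content of 70.4%, and is not printed because it overlaps exons of other Kcnk2 transcripts. Over the 94 RefSeq promoter windows of 69 members the median was 7 CpG and a GC content of 58.6%, against 6 CpG and 52.4% over 32851 windows of all genes. In these windows the GC box (GGGCGG or CCGCCC) occurred in 42 of 94 (44.7%, against 32.7% of all windows). The cAMP response element, the palindrome TGACGTCA, occurred in 0 of 94, against 1.55% of all windows, which says only that these letters are not in these windows.

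Starts past the midpoint of the gene span held most of the start FPKM for 2 of 55 members in sham and for 6 of 51, 1 of 54, 2 of 54, 4 of 47 and 0 of 49 after stroke, against 5.64% to 7.91% of all genes in each library.

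**Figure D5:**
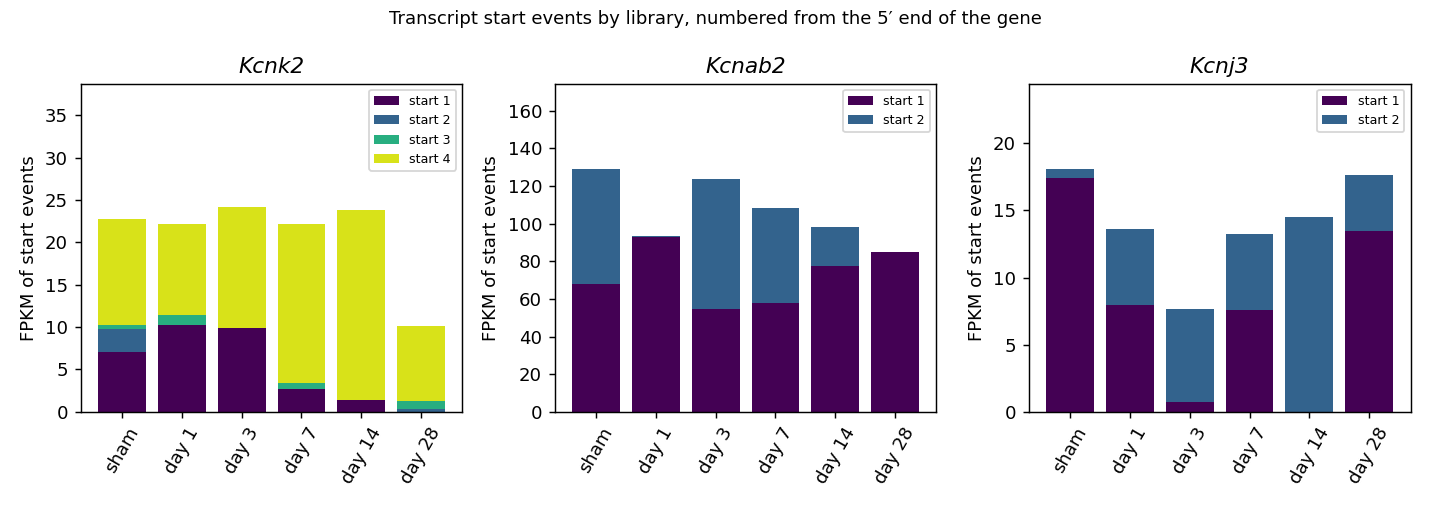
Stacked FPKM of the transcript start events of Kcnk2, Kcnab2 and Kcnj3 in each of the 6 libraries, numbered from the 5′ end of the gene, for starts that reach 1 FPKM in any library. Start 1 of Kcnk2 shrinks from 10.3 FPKM at day 1 to 1.41 FPKM at day 14 while the total is level, and start 2 of Kcnab2 is nearly missing at days 1 and 28.

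Splicing events were also read, as the share that the included event held of the FPKM of an exon's included and skipped events. It was computed for 15 exons of members with an included and a skipped event and a sum of at least 2 FPKM in every library. The 57-nt exon of Kcnd3 (chr3:105666962-105667018) was included at 20.4% in sham and at 44.5%, 49.8%, 23.0%, 16.0% and 26.1% in the 5 post-stroke libraries. Days 1 and 3 stood above the rest. The included FPKM equalled that of a start at 105458782 in sham and at days 3, 7 and 28 (1.43, 3.83, 2.28 and 2.52 FPKM). At day 1 it was 3.91 FPKM, where that start had 2.55 FPKM and a start at 105664610, listed in no other library, had 1.37 FPKM. The exon and these starts are therefore not separate readouts. In contrast, a 33-nt exon of Kcnip1 (chr11:33651540-33651572) stayed between 22.1% and 37.3%, and a 42-nt exon of Kcnab2 (chr4:152434782-152434823) was included at 97.3% or more in all libraries. A 118-nt exon of Kcnk2 (chr1:189295594-189295711) was included at 69.2% in sham, at 43.1% to 60.2% from day 1 to day 14, and at 100% at day 28. The distal start was not listed at day 28. In sham and at days 1 and 3 the skipped FPKM (7.00, 10.3 and 9.92) was close to that of the distal start (7.01, 10.3 and 9.93). At days 7 and 14 it was 8.81 and 13.55 FPKM, against 2.68 and 1.41 FPKM for that start. Inclusion was lowest at day 14, where that start held 5.93% of the start sum. The exon and the start thus ran together in sham and at days 1, 3 and 28, but not at days 7 and 14.

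Of 29 genes whose products work with these channels and are not members, 20 to 22 were compared at each day, and 2 were lower at each of days 1, 3, 7 and 14 and 1 at day 28 (against 4.48%, 2.53%, 2.12%, 6.92% and 2.79% of all genes compared). From day 1 to day 28, 0, 2, 2, 1 and 2 were higher (against 5.11%, 8.54%, 8.53%, 8.97% and 3.68%). Slc12a5, the neuronal chloride extruder KCC2 that is driven by the potassium gradient, had 70.0 FPKM in sham, 33.0, 31.2, 30.5 and 26.5 FPKM at days 1, 3, 7 and 14, and 83.0 FPKM at day 28. Its first 4 post-stroke libraries lay close together, with log2 ratios of -1.08 to -1.40, and the last lay above sham. Hcn4, a pacemaker channel, had 1.49 FPKM in sham and 0.374 to 0.806 FPKM after stroke. Abcc8, a sulphonylurea receptor that forms the ATP-gated channel with Kcnj8 or Kcnj11, had 4.77 FPKM in sham and 2.08 to 2.99 FPKM after stroke. Slc12a7, a potassium-chloride cotransporter, had 0.521 FPKM in sham and 1.91, 2.27 and 1.69 FPKM at days 3, 7 and 14. The 6 subunits of the sodium-potassium pump summed to 1750 FPKM in sham and to 1465 to 1718 FPKM after stroke. The Kv4 partners Dpp6 and Dpp10 summed to 51.3 FPKM in sham and 44.1 to 51.8 FPKM after stroke, with Dpp10 alone at 10.1 FPKM in sham and 5.16 FPKM at day 14.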

How the data were processed

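Per the labels, poly(A)-selected, strand-specific libraries of pooled cortex RNA were sequenced as paired 150-base reads to an average of 33.6 M reads. FPKM values were computed by the authors and deposited per event (transcript starts, transcript ends and splicing events), 1 table per library. The submitters' processing notes name Trimmomatic 0.30, HISAT2 2.0.1, HTSeq 0.6.1 and mm10, and the step that gave each event its FPKM is not given in the sources used here. FPKM keeps no count, so no count test, interval or detection floor could be given.

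Members were matched by Ensembl identifier to GENCODE M21 (GRCm38), and 93.4% of events with an identifier lay inside the span of their gene on its strand. A gene's level was the largest of the start sum, the end sum and any single event. It took in every event with the gene's identifier, also those outside its span or on the opposite strand. Ratios were log2((FPKM + 0.1)/(sham FPKM + 0.1)) for genes with at least 1 FPKM in 1 of the 2 libraries, counted at a size of at least 1, with the same share over all genes compared as background. With 1 library per group no test was run. The samples were grouped by their treatment labels. The members, lists and constructions were chosen with earlier results of these data known. Named were, at each day, the 6 largest and 6 smallest log2 ratios among members listed in both libraries, the leading member of each subfamily, and members known from certain cell types. Genes named beyond this rule, and the starts and exons described, were chosen after their values were seen. Some members are in the counts and sums but not reported by name here. Lengths are those of the longest annotated transcript, and the length trend was the median log2 ratio in 20 bins of length. Alternatives were pseudocounts of 0.5 and 1 FPKM, no filter or a filter of 5 FPKM, start or end sums, events inside the span, scaling by the median, the length trend, and genes listed in both libraries. Python 3.11.15, numpy 2.4.6, pandas 2.3.3 and matplotlib 3.10.9 were used, and the scripts were tested on simulated data.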

Additional observations from a re-analysis of the deposited data

Results flagged for a closer look

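Antisense transcripts of the family belong to no comparison above, and 2 of 5 annotated antisense genes named after a Kcn gene were listed. Kcnmb4os2, antisense to Kcnmb4, had 0.665 FPKM in sham and was above it in every post-stroke library, with 4.13, 3.18, 2.09, 2.15 and 1.09 FPKM in the libraries of days 1, 3, 7, 14 and 28. Kcnmb4 itself had its sham level of 40.9 FPKM as the highest of the 6. Kcnd3os was not listed in sham, at day 3 or at day 7, and had 0.747, 0.571 and 1.24 FPKM in the libraries of days 1, 14 and 28. The libraries were strand-specific, but whether the FPKM step used strand is not given in the sources used here, so sense and antisense reads may be mixed in these values. Both lie outside the family's rule, 1 above its sham level and 1 listed only after stroke, and with 1 library per group neither difference was tested.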

How the results depend on the processing

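No paired analysis was possible because each group was 1 library. Of the alternative values of the counts, medians and sums, 138 stayed within tolerance (a factor of 1.5 for counts, 0.1 for a median log2 ratio, 10 percentage points for sums) and 52 moved; no median changed sign. Those for the sums of FPKM, and the start, end and span values for the highest and lowest library, the counts without Kcnk4 and the marker sums without 1 gene were chosen after seeing the data. Values that moved follow. With a pseudocount of 0.5 FPKM, 0 members were higher at day 1 and 1 at day 14. With 1 FPKM, 0, 1 and 0 were higher at days 1, 14 and 28, and 1 was lower at day 7. With no filter, 3, 5, 5, 5 and 3 were higher at the 5 days and the day 14 median was -0.16. With a filter of 5 FPKM, 0 were higher at every day, and 2, 2, 1, 5 and 3 were lower. By the start sum, 4 were higher at day 3 and 4 lower at day 7. By the end sum, 4, 3, 4, 4 and 4 were higher, and 5 were lower at day 7 and 5 at day 28. Median scaling gave 4 lower at day 7. The length trend gave 2 higher at day 1, 4 lower at day 7, a day 14 median of -0.18 and 12 members lowest at day 14. Without members that 1 of the libraries lacks, 0 were higher at days 3 and 7 and 1 at day 14, 3, 6 and 4 were lower at days 1, 14 and 28, and the day 14 median was -0.16. At a 1.5-fold threshold, 5, 3, 5 and 2 were higher at days 1, 3, 7 and 28, and 12, 12, 10, 19 and 13 were lower. Among single called members, 289 alternative values kept their call, 24 lost it with the same direction, and 2 reversed, both for Kcnk4 by the end sum (1.02 at day 3 and 1.46 at day 28). Apart from what each alternative's construction removes, the cause was not tested. Depth per library is unknown, so members near 1 FPKM carry the least certain values.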
